A study of Mus musculus with 2 samples.

Results

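The 10 genes described here are Atf4, the transcription factor of the integrated stress response, 6 genes known as its targets (Chac1, Trib3, Atf3, Ddit3, Asns and Psat1), and 3 genes of the endoplasmic reticulum (ER) side of the unfolded protein response (Hspa5, Xbp1 and Herpud1). The genes were chosen with earlier results of these data known. Their probes were taken by name, as every non-control probe whose gene name in the scanner output was one of the 10. That gave 12 probes of 39429, and 10 genes of 31896 gene names. Atf4 and Psat1 had 2 probes each, and the other 8 genes had 1. Every one of the 12 was printed as a single spot and lay well above background in all 4 channels, with no saturated and no outlier spot.

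The cells were mouse ZHBTc4 embryonic stem (ES) cells, which have no working endogenous Oct4 gene and rely on an Oct4 transgene that is shut off by doxycycline. There were 3 stable monoclonal lines, each with a pCAG-IP vector: Nr5a2-EGFP (clone 26), Oct4-EGFP (clone 9) and EGFP alone (clone 2-5). All were grown without feeder cells in 15% serum with 1000 IU/ml LIF and were given doxycycline, the agent that shuts off the regulated Oct4, before RNA was taken. On 2 two-colour Agilent arrays of 1 slide, Cy5 held the Nr5a2-EGFP clone both times, while Cy3 held the Oct4-EGFP clone on one (here the Oct4 array) and the EGFP clone on the other (the EGFP array).

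When cells lack amino acids or fill the ER with unfolded protein, kinases phosphorylate the translation factor eIF2alpha. General protein synthesis then slows while ATF4 protein is made from its mRNA, and ATF4 switches on genes for amino acid supply, redox balance and, under lasting stress, cell death. In parallel the ER sensors IRE1 and ATF6, through spliced XBP1 and cleaved ATF6, raise chaperones such as BiP and the machinery that degrades misfolded ER proteins. ATF4 is controlled largely at translation, so its mRNA on an array is not a measure of its protein.

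Each pair of clones was measured once, without replicates or swapped dyes, which leaves the spread between cultures unknown and allows no test. Each transgene is represented by 1 clone, so the transgene and any other property of that clone cannot be told apart. Genes were described by size: a log2 ratio of at least 1 or at most -1 is called at least 2-fold higher or lower. The Oct4-EGFP clone was compared with the EGFP clone indirectly, by subtracting the log2 ratio of the Oct4 array from that of the EGFP array. The only repeat was the Nr5a2-EGFP clone, read on both arrays: its log2 readings differed with an SD of 0.27 over 24573 genes, and 1.31% of genes were at least 2-fold apart between them. For the 12 probes the readings differed by -0.08 to 0.15 (Oct4 array minus EGFP array), and none exceeded 1 SD of probes of like brightness (0.21 to 0.33). Both readings were in Cy5, so these SDs cover neither the spread between cultures nor a difference between dyes. Where a ratio is set beside such an SD below, it is for scale only.

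Of the spots, 78.1% to 80.1% per channel lay well above background. The probes of the transgenes' own genes do not check the labels, since it is not known whether the transgenes carry the probed stretch: the brighter Nr5a2 probe read lower in the Nr5a2-EGFP clone (-0.92 over EGFP and -1.14 over Oct4-EGFP), and Pou5f1, which encodes Oct4, was dim (179 and 103 in Nr5a2-EGFP, 193 in Oct4-EGFP and 195 in EGFP cells). The 9 ES cell markers were all detected, except Pou5f1 in Nr5a2-EGFP cells on the Oct4 array. Nanog and Dppa5a were saturated in 1 or more channels, and the summed level of the other 7 was 25735 and 26373 in the Nr5a2-EGFP clone, 109547 in Oct4-EGFP cells and 28483 in EGFP cells (105851 and 107909, 254375, and 160539 with both). Such sums rest mostly on the brightest probes, and Esrrb alone read 59002 in Oct4-EGFP cells. The close ES cell sums of the Nr5a2-EGFP clone do not mean that each marker read alike on both arrays. Its readings (Oct4 array minus EGFP array) lay 1.45 apart for Esrrb (1636, then 4470 on the Oct4 array). They lay -1.15 apart for Zfp42 (8332, then 3761) and -0.8 for Pou5f1. The summed level of 8 trophoblast markers was 66700 and 66503, against 16441 in Oct4-EGFP cells and 60930 in EGFP cells, with Elf5 not well above background in any channel. Set against Oct4-EGFP, the Nr5a2-EGFP clone had 6 of 7 measured trophoblast markers 2-fold or more higher, and 5 of 9 ES cell markers 2-fold or more lower. The clones therefore differed in cell state markers along with the stress genes, and the part of these markers in the differences below was not tested. In such bulk RNA, fewer cells of a type and less RNA per cell cannot be told apart.

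Chac1 and Trib3, both targets of ATF4, differed by at least 2-fold in the Nr5a2-EGFP clone, in opposite directions, against either of the other clones. Over EGFP, they were the only members of the 10 past 2-fold: 1 higher, as were 3.34% of 26001 measured genes, and 1 lower, where 5.07% were (8.41% in either direction). Over Oct4-EGFP, 3 of the 10 were past 2-fold, Trib3 and Atf4 higher, where 4.54% of 26098 genes were, and Chac1 lower, where 7.11% were (11.7% in either direction). Between Oct4-EGFP and EGFP, 0 of the 10 were past 2-fold by their brighter probe, where 12.3% of 26343 genes were (6.48% higher and 5.85% lower), though the dimmer Atf4 probe was (-1.32). Of the calls over EGFP among all genes, 39.8% were higher, but 63.5% with median centring in place of loess; Chac1 and Trib3 kept their sides under both. These comparisons share clones, so they are given side by side and not as independent results. With 10 genes and 1 array a pair, the counts of 2 and 3 were not tested against the background share. The 10 were chosen with earlier results of these data known, so these counts, and the places among all genes given below, carry that choice.

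Chac1 encodes a gamma-glutamylcyclotransferase that breaks down glutathione and is a late target of the ATF4 and CHOP branch. Its probe (NM_026929) lies at chr2:119179990-119180049 on the plus strand of mm9, the build of every probe position here. Its normalised intensity, the background-corrected and scaled brightness of the spot, was 1125 and 1244 in the Nr5a2-EGFP clone, 4938 in Oct4-EGFP cells and 3312 in EGFP cells. Both readings of Nr5a2-EGFP cells were close to each other and well below the other clones. The log2 ratio was -1.56 over EGFP (2.95-fold lower) and -1.99 over Oct4-EGFP (3.97-fold lower), beside an SD of 0.27 between readings at this brightness. Of all measured genes, 1.32% were as low or lower over EGFP and 1.3% over Oct4-EGFP. In the indirect comparison, Oct4-EGFP over EGFP, Chac1 had a log2 ratio of 0.43.

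Trib3 encodes a pseudokinase that binds AKT and ATF4 and is induced by ATF4 and CHOP. Its probe (NM_175093) lies at chr2:152163161-152163220 on the minus strand of mm9. Its level was 9026 and 9677 in the Nr5a2-EGFP clone, 4570 in Oct4-EGFP cells and 3265 in EGFP cells. Here the Nr5a2-EGFP clone was the highest of the 3 in both readings, where for Chac1 it was the lowest. The log2 ratio was 1.47 over EGFP (2.76-fold higher) and 1.08 over Oct4-EGFP (2.12-fold higher), and 0.38 for Oct4-EGFP over EGFP. Of all measured genes, 0.812% were as high or higher over EGFP, and 3.79% over Oct4-EGFP. With the Nr5a2-EGFP reading of the other array the ratio over Oct4-EGFP was 0.98, just under 2-fold, while it was 1 or more in the other 7 of 8 settings. All direct ratios, those of Chac1, Trib3 and Atf4 included, have the Nr5a2-EGFP clone in Cy5, so a dye effect specific to a probe and a difference of that clone cannot be told apart.

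**Figure D1:**
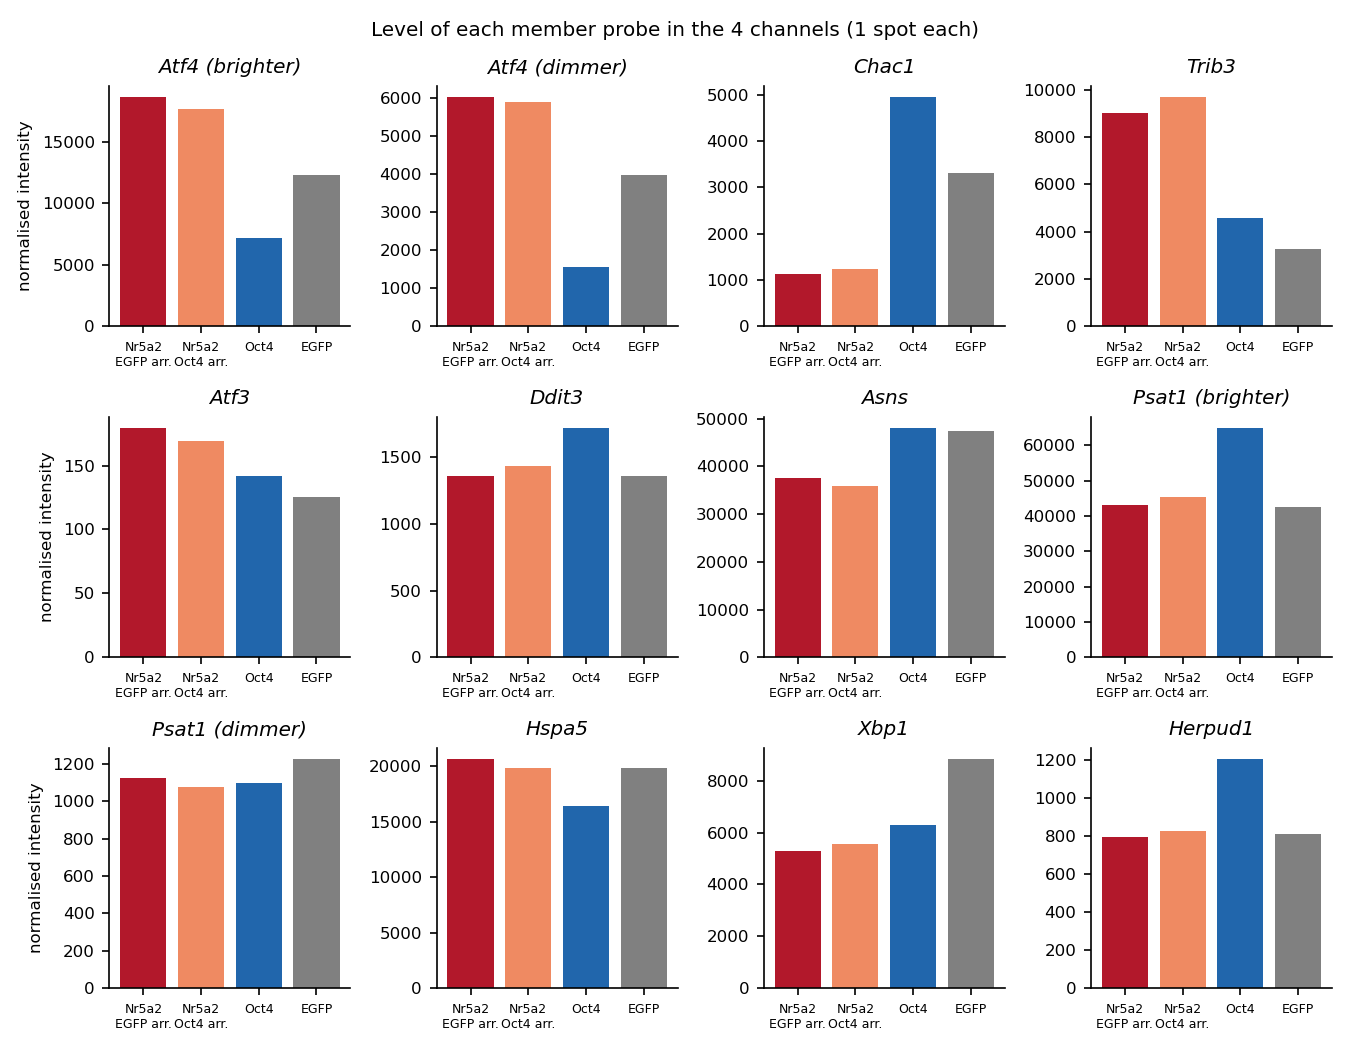
Normalised intensity (linear axis from 0, a scale of its own in each panel) of the 12 probes in the 4 channels: Nr5a2-EGFP (EGFP array, then Oct4 array), Oct4-EGFP and EGFP, each bar 1 spot with no error between cultures. Chac1 was lowest in both readings of the Nr5a2-EGFP clone (1125 and 1244), Trib3 was highest there (9026 and 9677), and both Atf4 probes were lowest in the Oct4-EGFP clone (7191 and 1561).

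The regulatory sequence in front of these genes is shown as a description, and whether it bears on the direction of a gene was not tested. Promoters were taken from RefSeq on GRCm38.p6 as the 250 bases before the gene's start. The 10 genes had 11 such windows, as Psat1 had more than 1, and a gene was counted if any of its windows matched. Both strands of 32851 mouse promoter windows of that length were searched for the C/EBP-ATF composite element TGATGNAA, through which ATF4 is known to act. It was found in 3.45% of them and in 4 of the 10 genes: Chac1 (from 193 bases before the start), Herpud1 (112), Atf3 (110) and Asns (23). Over EGFP these 4 had log2 ratios of -1.56, -0.03, 0.51 and -0.34, in that order. It may overlap other motifs, a match is a description of letters and not a binding site, and no match says only that these letters are not in the window. Capitals mark the match in the Chac1 window (chr2:119350992-119351241, plus strand), while the Trib3 window (chr2:152344061-152344310, minus strand) has none.
Chac1: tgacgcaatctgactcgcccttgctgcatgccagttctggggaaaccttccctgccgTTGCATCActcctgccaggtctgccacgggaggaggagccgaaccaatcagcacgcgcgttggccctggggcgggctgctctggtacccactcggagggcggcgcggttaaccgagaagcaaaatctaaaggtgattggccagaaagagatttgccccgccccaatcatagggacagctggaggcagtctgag
Trib3: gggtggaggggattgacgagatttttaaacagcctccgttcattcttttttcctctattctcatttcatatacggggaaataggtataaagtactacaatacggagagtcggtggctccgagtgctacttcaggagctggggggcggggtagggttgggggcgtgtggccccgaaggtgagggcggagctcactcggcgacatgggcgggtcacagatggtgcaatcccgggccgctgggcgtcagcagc

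The windows of Hspa5 (chr2:34771840-34772089, plus strand) and Herpud1 (chr8:94386179-94386428, plus strand) show the ER side. The ER stress response element, read by ATF6 with the factor NF-Y, was searched as CCAAT and CCACG with 9 bases between. It was found in 0.113% of windows and, of the 10 genes, in Hspa5, where it starts 65 bases before the start. The second element of this kind, ATTGG and CCACG with 1 base between, was found in 0.0304% of windows and, of the 10 genes, in Herpud1, 52 bases before the start. Herpud1 thus carried letters of both arms, the C/EBP-ATF element and an ER stress element. Capitals mark the matched letters.
Hspa5: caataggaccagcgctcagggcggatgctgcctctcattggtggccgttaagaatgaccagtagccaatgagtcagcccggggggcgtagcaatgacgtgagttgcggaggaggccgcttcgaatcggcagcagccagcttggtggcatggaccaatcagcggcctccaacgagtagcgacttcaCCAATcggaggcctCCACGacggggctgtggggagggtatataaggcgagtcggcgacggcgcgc
Herpud1: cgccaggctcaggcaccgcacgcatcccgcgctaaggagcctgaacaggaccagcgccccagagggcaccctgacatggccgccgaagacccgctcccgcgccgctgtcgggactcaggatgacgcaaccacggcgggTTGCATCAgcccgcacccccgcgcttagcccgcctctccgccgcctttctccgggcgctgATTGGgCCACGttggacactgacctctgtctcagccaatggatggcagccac

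Atf4 mRNA was lowest in the Oct4-EGFP clone by both of its probes. The brighter probe (chr15:80087902-80087961, plus strand of mm9) read 18623 and 17698 in the Nr5a2-EGFP clone, 7191 in Oct4-EGFP cells and 12333 in EGFP cells. The dimmer one (chr15:80086639-80086698) lies nearer the 5′ end and read 6011 and 5891, against 1561 in Oct4-EGFP cells and 3973 in EGFP cells. Both probes gave the same order of the 3 clones, with Nr5a2-EGFP highest.

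Over Oct4-EGFP, the log2 ratio of Atf4 was 1.30 (2.46-fold higher) by the brighter probe and 1.92 (3.77-fold) by the dimmer. Over EGFP the probes gave 0.59 and 0.60, or 1.51-fold higher by either, which is under 2-fold. The probes did not give the same size for Oct4-EGFP over EGFP, at -0.70 (1.63-fold lower) and -1.32 (2.49-fold lower). At these probes the repeat readings lay only -0.07 and -0.03 apart, against an SD of 0.33 at this brightness. Of all measured genes, 2.38% were as high or higher over Oct4-EGFP, and 11.1% were as low or lower in the indirect comparison.

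**Figure D2:**
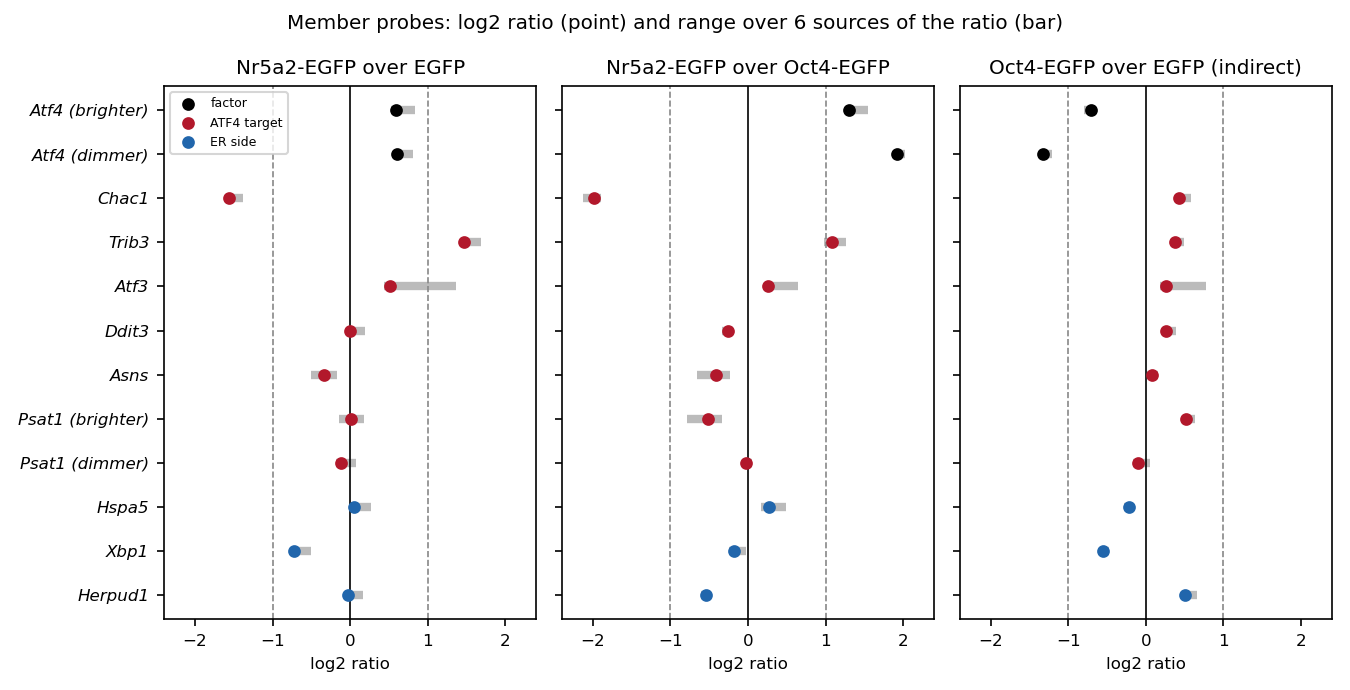
Log2 ratio of the 12 probes in the 3 comparisons (points, coloured by role), with the range over 6 ways of obtaining the ratio (grey bars) and dashed lines at 2-fold. Chac1 (-1.56 and -1.99) and Trib3 (1.47 and 1.08) lie past 2-fold on opposite sides in both direct comparisons. Over Oct4-EGFP, both Atf4 probes lie above Trib3 (1.30 and 1.92). In the direct comparisons the ranges of the other genes stay within 2-fold, except those of Atf4 over Oct4-EGFP and Atf3 over EGFP.

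Atf3, a stress-induced repressor of the ATF family, gave the dimmest spots of the 12 probes. Its probe (chr1:192994547-192994606, minus strand) read 179 and 169 in the Nr5a2-EGFP clone, 142 in Oct4-EGFP cells and 125 in EGFP cells. The order was Nr5a2-EGFP, Oct4-EGFP, EGFP, with small gaps. Its log2 ratio was 0.51 over EGFP, 0.26 over Oct4-EGFP and 0.26 for Oct4-EGFP over EGFP. The software's own processed signals were 155 and 149, against 97.2 in Oct4-EGFP cells and 60.2 in EGFP cells. From those signals the ratio over EGFP was 1.31, past 2-fold, so the size of the Atf3 difference depended on how the background was treated, while its direction was the same in all 8 settings.

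Ddit3 encodes CHOP, the pro-apoptotic factor downstream of ATF4, and differed little between the clones. Its probe spans 304 bases of mm9 (chr10:126732518-126732821, plus strand), longer than the probe itself at 60 bases. It read 1357 and 1433 in the Nr5a2-EGFP clone, 1716 in Oct4-EGFP cells and 1358 in EGFP cells. The level was highest in the Oct4-EGFP clone, with a log2 ratio of -0.26 for Nr5a2-EGFP over Oct4-EGFP and 0.26 for Oct4-EGFP over EGFP. Over EGFP the ratio was 0.00, and up to 0.19 over the 8 settings, with no settled sign. These differences are within the SD of 0.30 between readings at this brightness.

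The amino acid enzyme genes of the group, Asns and Psat1, stayed within 2-fold in all 3 comparisons. Asns makes asparagine, and its probe (chr6:7625171-7625228, minus strand) read 37528 and 35964 in the Nr5a2-EGFP clone, 47935 in Oct4-EGFP cells and 47351 in EGFP cells. The Nr5a2-EGFP clone was the lowest, at -0.34 over EGFP and -0.41 over Oct4-EGFP, and the other clones were nearly level (0.08).

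Psat1 makes phosphoserine in the serine pathway. Its brighter probe (chr19:15979622-15979681, minus strand) read 42979 and 45473 in the Nr5a2-EGFP clone, 64758 in Oct4-EGFP cells and 42548 in EGFP cells. It was highest in the Oct4-EGFP clone, with log2 ratios of -0.51 for Nr5a2-EGFP over Oct4-EGFP and 0.52 for Oct4-EGFP over EGFP, and 0.01 over EGFP with no settled sign. The dimmer probe (chr19:15991586-15991645) read 1126 and 1078, against 1095 in Oct4-EGFP cells and 1223 in EGFP cells. It did not show the higher level in the Oct4-EGFP clone: its indirect ratio was -0.10.

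On the ER side, no gene was 2-fold apart in any comparison. Hspa5 encodes BiP, the main Hsp70 chaperone of the ER lumen, and is the usual readout of ER stress. Its probe (chr2:34631913-34631972, plus strand) read 20605 and 19813 in the Nr5a2-EGFP clone, 16398 in Oct4-EGFP cells and 19866 in EGFP cells. The clones were nearly level, with log2 ratios of 0.05 over EGFP (no settled sign over the settings), 0.27 over Oct4-EGFP and -0.22 for Oct4-EGFP over EGFP, each under the SD of 0.32 between readings at this brightness.

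Xbp1, the factor that IRE1 activates by splicing its mRNA, was highest in the EGFP clone. Its probe (chr11:5425816-5425875, plus strand) read 5301 and 5556 in the Nr5a2-EGFP clone, 6298 in Oct4-EGFP cells and 8814 in EGFP cells. Both Nr5a2-EGFP (-0.73, or 1.66-fold lower) and Oct4-EGFP (-0.55, or 1.47-fold lower) were under EGFP, beyond the SD of 0.29 between readings, and they differed from each other by -0.18. Of all genes, 9.59% were as low or lower than Xbp1 over EGFP. The files do not say whether the probe separates the spliced and unspliced forms.

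Herpud1 encodes an ER membrane protein that takes part in ER-associated degradation and is known to answer to both ATF4 and the ER sensors. Its probe (chr8:96919117-96919176, plus strand) read 794 and 826 in the Nr5a2-EGFP clone, 1203 in Oct4-EGFP cells and 813 in EGFP cells. Only the Oct4-EGFP clone stood apart, with log2 ratios of -0.54 for Nr5a2-EGFP over Oct4-EGFP and 0.51 for Oct4-EGFP over EGFP, and -0.03 over EGFP with no settled sign. In this it was like the brighter Psat1 probe and unlike Xbp1.

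Set side by side, the 6 ATF4 targets and the 3 ER genes did not form separate blocks in the Nr5a2-EGFP clone. Over EGFP, the targets ran from -1.56 (Chac1) to 1.47 (Trib3) with a median of 0.01, and the ER genes from -0.73 (Xbp1) to 0.05 (Hspa5) with a median of -0.03, where the median of all genes was 0.03. The difference of the medians, targets minus ER genes, was 0.04. Over Oct4-EGFP, the targets ran from -1.99 to 1.08 with a median of -0.34 and the ER genes from -0.54 to 0.27 with a median of -0.18, a difference of -0.16, where all genes had a median of 0.01. The width of the target group came from Chac1 and Trib3, and its middle lay near that of the ER genes.

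Between Oct4-EGFP and EGFP the targets were narrower. All 6 had log2 ratios above 0, from 0.08 (Asns) to 0.52 (Psat1) with a median of 0.32, and kept that sign in all 8 settings, although the dimmer Psat1 probe did not. The ratios of Asns and Ddit3 (0.26) were within the SD of readings at their brightness (0.26 and 0.30). Of all genes, 45.2% were as high as Asns or higher. The ER genes ran from -0.55 (Xbp1) to 0.51 (Herpud1) with a median of -0.22, so the medians differed by 0.54, and all genes had a median of 0.02. Atf4 itself lay on the other side of its targets there, at -0.70 and -1.32 by its probes. In the Nr5a2-EGFP clone over Oct4-EGFP, Atf4 was higher by 1.30 while 4 of its 6 targets had ratios below 0, where the median of all genes was 0.01. Of these 4, Ddit3 (-0.26) lay within its SD of 0.30, and Psat1 (-0.51) had -0.02 by its dimmer probe. The order of the clones by Atf4 mRNA (Nr5a2-EGFP, EGFP, Oct4-EGFP) was not the order of any of its 6 targets by their brighter probe, and Trib3 and Atf3 shared with it that Nr5a2-EGFP was highest.

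**Figure D3:**
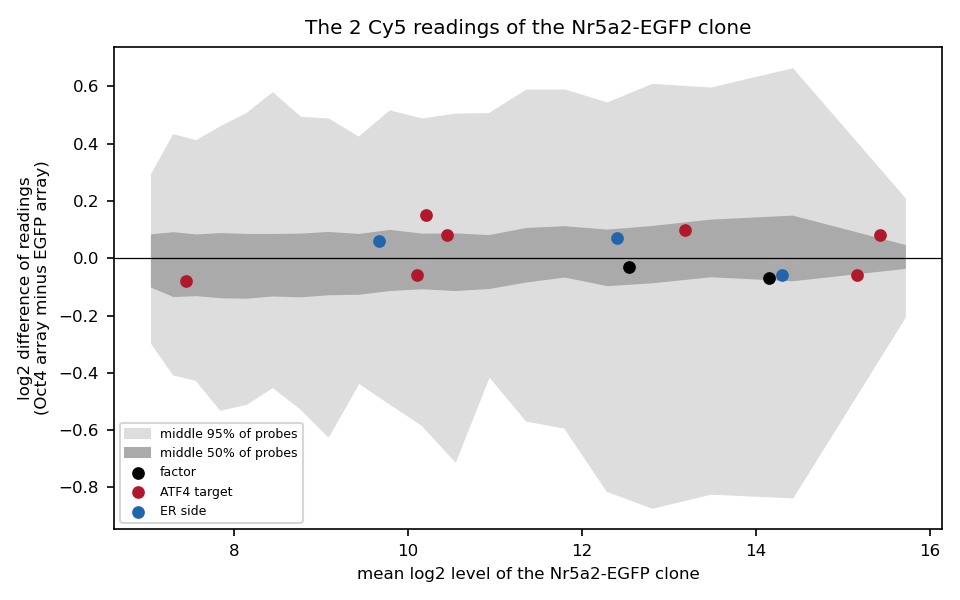
Difference between the log2 readings of the Nr5a2-EGFP clone (Oct4 array minus EGFP array) against their mean log2 level, with grey bands for the middle 50% and 95% of all probes and points for the 12 probes by role. The points lie between -0.08 and 0.15, inside the wider band at every level.

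The wider pathway was described through 8 lists of 89 genes, members left out, of which 87 were measured; Slc7a11 was not well above background in any channel, and the spot of Gdf15 was an outlier on both arrays. Over EGFP, 3 of the 87 were past 2-fold upward and 2 downward; over Oct4-EGFP, 5 were higher and 6 lower; and in the indirect comparison 9 were higher and 5 lower. The medians were -0.07, -0.07 and -0.03. These are 5.75%, 12.6% and 16.1% of the 87, beside 8.41%, 11.7% and 12.3% of all genes, differences that were not tested. Which share was larger depended on the setting: that of the lists was the larger in 2, 3 and 7 of the 8 settings. In all, 20 genes passed 2-fold somewhere, in 30 gene and comparison pairs, of which 24 kept the call in all 8 settings. Another 9 of the 87 were saturated in 1 or more channels (Cbs, Slc7a5, Slc1a4, Sesn2, Ddit4, Tnfrsf10b, Creb3, Calr and Canx), so their ratios can be held in by the scanner's ceiling and their falling short of 2-fold says little.

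Upstream of Atf4, the kinases of eIF2alpha and their partners had 0 of 7 genes past 2-fold over EGFP. Over Oct4-EGFP, the double-stranded RNA sensor Eif2ak2 was higher (1.10) and the ER sensor Eif2ak3, which encodes PERK, lower (-1.04, and -0.80 in the setting nearest 0), and in the indirect comparison the amino acid sensor Eif2ak4, which encodes GCN2, was lower (-1.27). Eif2ak3 read 7972 and 8729 in the Nr5a2-EGFP clone, 17925 in Oct4-EGFP cells and 12368 in EGFP cells.

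Beside Asns and Psat1, 1 of 13 further amino acid synthesis genes passed 2-fold, Cth, which makes cysteine from cystathionine. Cth read 815 and 1021 in the Nr5a2-EGFP clone, 3224 in Oct4-EGFP cells and 299 in EGFP cells, or 1.45 over EGFP, -1.66 over Oct4-EGFP and 3.1 for Oct4-EGFP over EGFP, and its other probe gave 0.91, -1.47 and 2.38. Of 8 amino acid transporters, the glutamine carrier Slc1a5 was higher over EGFP (1.53) and in the indirect comparison (2.15), but its other probe gave 0.72 and 0.81. The glycine transporter Slc6a9 was higher over Oct4-EGFP (1.20, and 1.74 by its other probe). Of 12 tRNA synthetases, the tyrosine enzyme gene Yars was higher over EGFP (1.08), lower over Oct4-EGFP (-1.42) and higher in the indirect comparison (2.50), the glycine enzyme gene Gars was lower over EGFP (-1.26), and the serine enzyme gene Sars was lower in the indirect comparison (-1.05, down to -0.99 in 1 setting). The synthetase list had 9 of 12 ratios below 0 over EGFP, with a median of -0.39, where the median of all genes was 0.03. It also had 9 of 12 below 0 in the indirect comparison, with a median of -0.33. The other probes of Aars (0.29) and Wars (0.53) lay above 0 over EGFP, unlike their brighter ones (-0.40 and -0.24). None of 11 other ATF4 or CHOP genes passed 2-fold in any comparison, but 3 of them (Sesn2, Ddit4 and Tnfrsf10b) are among the saturated ones.

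Around Hspa5, Xbp1 and Herpud1, 0 of 16 ER chaperone genes passed 2-fold over EGFP (median 0.29, with Calr and Canx saturated in Cy5) and 3 were higher in the indirect comparison (median 0.36): the disulfide isomerase genes Pdia4 (1.48) and Pdia6 (1.07) and the ER oxidase gene Ero1b (1.76). The other probe of Pdia6 gave -0.53, and the call was lost in 2 of 8 settings. Ero1b was also lower over Oct4-EGFP (-1.18, and -0.82 in the setting nearest 0). Of 9 sensors and proteases, Atf6b, a relative of Atf6, was lower over EGFP (-2.23) and in the indirect comparison (-2.74), reading 1102 and 1194 in the Nr5a2-EGFP clone, 835 in Oct4-EGFP cells and 5158 in EGFP cells. Atf6, the ER sensor that induces Hspa5, was higher over Oct4-EGFP (1.22), and Creb3l2, which encodes another membrane-bound ER factor, was lower there (-1.90) and higher in the indirect comparison (1.53), with repeat readings 0.63 apart. Ern2, a sensor related to IRE1, was higher in the indirect comparison (1.17). Of 11 degradation genes, the derlin gene Derl3 was lower over Oct4-EGFP (-1.30) and higher in the indirect comparison (2.07), the glycan-trimming gene Edem3 (1.01, and 0.87 in the setting nearest 0) and Ubxn4 (1.08) were higher over Oct4-EGFP, and Ubxn4 (-1.57) and Sel1l (-1.06, and -0.93 in the setting nearest 0), the partner of an ER ubiquitin ligase, were lower in the indirect comparison.

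**Figure D4:**
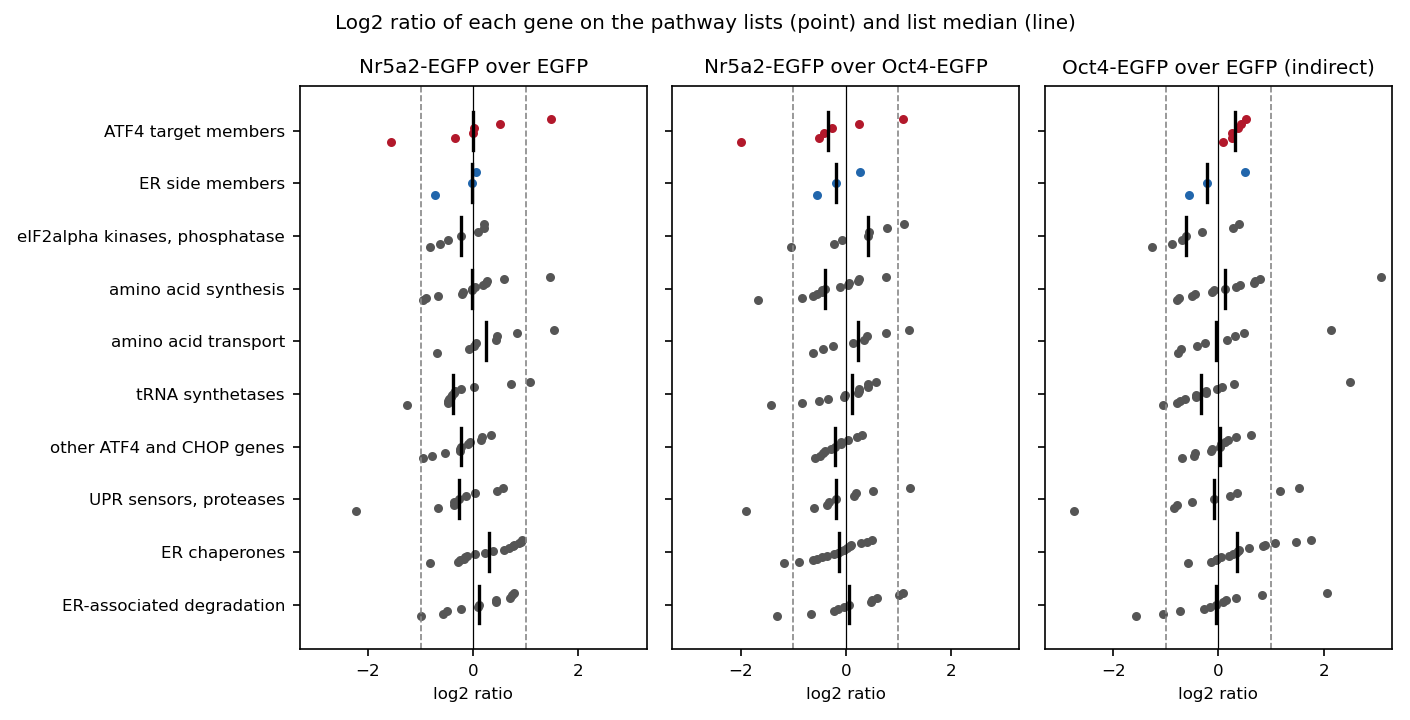
Log2 ratio of every measured gene (points) and the list median (vertical bar) for the 6 ATF4 target genes, the 3 ER genes and the 8 pathway lists in the 3 comparisons, with dashed lines at 2-fold. The ATF4 targets spread from -1.99 to 1.47 in the direct comparisons and lie between 0.08 and 0.52 in Oct4-EGFP over EGFP, and most genes of every list lie inside 2-fold.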

How the data were processed

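RNA of 3 clones was read on 2 two-colour arrays of design 026655. The deposited spot intensity values come from Agilent Feature Extraction (10.7.3.1 per the file headers, 9.3.2.1 per the submitters' processing notes), with probe positions on mm9. Per the file headers, that software also subtracted and detrended the background, normalized the dyes of each array to give processed intensity values, and took their log10 ratio (Cy5 over Cy3). In the value table that the authors deposited, log2 ratios followed the software's at r = 0.997 with a slope of 0.99 and medians of 0.03 (EGFP array) and 0.05 (Oct4 array). No source used here states its centring.

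From mean signal and local background, limma 3.58.1 (R 4.3.3) was used on the whole table for normexp (offset 50) and then within-array loess. Control and outlier spots (530 and 523) had weight 0 in loess. Levels are channels after Aquantile between arrays, and a level of one probe cannot be set against that of another. The median SD among spots of probes printed 10 times was 0.068 and 0.066 (log2), a technical error within the slide. All other precision is limited by the number of arrays. Names came from the files, with 26055 probes (66.1%) updated by RefSeq accession. The brightest probe stood for a gene with several, and a gene was measured if well above background in 1 or more channels of the comparison (for the indirect one, either Cy3 channel). Which exon or UTR a probe lies in was not analysed here.

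The direct ratios are open to dye bias. The indirect ratio, EGFP array minus Oct4 array, cancels a dye effect of a probe but takes in the difference between readings of the Nr5a2-EGFP clone, and the labels do not say whether those came from separate extracts. No test was run. Named are all probes of the members, every list gene at least 2-fold apart and the highest and lowest gene of each list. The members and lists were chosen with earlier results of these data known. The steps were tested on simulated data. As alternatives, the software's processed signals, its ratio, median centring, no background filter, the mean over probes, the value table and the other reading of the Nr5a2-EGFP clone (or Cy3 levels alone) were tried.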

Additional observations from a re-analysis of the deposited data

How the results depend on the processing

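Of 210 values (30 member results under 7 alternatives), 198 moved by less than the SD of the readings, and 12 moved further, 8 of them Atf3. Part of the 210 could not move. Without the background filter all members keep their values, since all 12 probes passed it, and the mean over probes can change only Atf4 and Psat1. For a gene with 1 probe, the 8 settings thus hold only 6 ways of obtaining the ratio. Of these, the value table nearly repeats the software's ratio (r = 0.997). No member past 2-fold changed sign, but Psat1, Hspa5, Herpud1 and Ddit3 over EGFP, at sizes of 0.05 or less, had no settled sign over the settings. Chac1 was at least 2-fold lower in all 8 settings over EGFP (-1.56 to -1.38) and over Oct4-EGFP (-2.13 to -1.90). Trib3 was at least 2-fold higher in all 8 over EGFP (1.47 to 1.69) and in 7 of 8 over Oct4-EGFP (0.98 to 1.26), and Atf4 in all 8 over Oct4-EGFP (1.30 to 1.61). Atf3 over EGFP ranged from 0.43 to 1.36 and was at least 2-fold higher in 3 of 8, those with the software's signals, its ratio or the value table. The count of members past 2-fold was 2 to 3 in both direct comparisons. In the indirect comparison it was 1 rather than 0 with the mean over probes, which takes in the dimmer Atf4 probe (Atf4 -1.01). Targets minus ER genes ranged from -0.03 to 0.09 over EGFP, so its sign is not settled, from -0.27 to -0.08 over Oct4-EGFP, and from 0.48 to 0.69 in the indirect comparison.

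The 5 pathway genes past 2-fold over EGFP became 8 with the software's ratio or the value table, 9 with median centring and 13 with the other reading of the Nr5a2-EGFP clone, and the cause was not tested. Over all genes, median centring put 1556 higher and 895 lower over EGFP (63.5% higher), against 869 and 1317 (39.8%) with loess, and moved the median to 0.16, which is under the differences of Chac1 and Trib3. The software's processed signals with loess gave 1681 higher and 2239 lower over EGFP, 1808 and 2780 over Oct4-EGFP (1185 and 1856 with normexp), and 2614 and 2408 in the indirect comparison (1708 and 1542). No paired analysis was possible because each pair of clones has 1 array and no test was run, and no replicate could be left out. Signal over background limits Atf3 most, the dimmest of the 12 probes.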

Other observations

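Among the pathway lists, several genes at the ends of a list stayed within 2-fold in all 3 comparisons. The eIF2alpha subunit gene Eif2s1 had -0.83 over EGFP, -0.22 over Oct4-EGFP and -0.61 for Oct4-EGFP over EGFP by its brighter probe, and -0.17, -0.48 and 0.31 by the other. The aspartate aminotransferase gene Got1 had -0.96, -0.46 and -0.51, Shmt1 had -0.89, -0.11 and -0.78 (-0.54, -0.57 and 0.03 by its other probe), and the mitochondrial folate enzyme gene Mthfd2 had 0.03, 0.77 and -0.74, in the same order of comparisons. The leucine transporter gene Slc7a5 was saturated in all 4 channels by its brighter probe, whose ratios are not given, and had 0.66, 0.28 and 0.38 by the other. Of the other ATF4 and CHOP genes, Vldlr had -0.95, -0.49 and -0.46 (0.11, 0.05 and 0.06 by its other probe), Nupr1 had -0.53, -0.58 and 0.05, and Atf5 had -0.79, -0.09 and -0.70. Ddit4 and Tnfrsf10b were saturated in Cy5 and are given no ratio. Among the ER chaperone genes, Dnajc3 had -0.82, -0.88 and 0.05, Manf had 0.87, 0.49 and 0.38, and Ppib had -0.29, 0.28 and -0.57. The repeat readings lay 0.50 apart for Manf and -0.49 for Nupr1, more than for any of the 12 member probes. Of the genes often used as references, Actb had -0.33, 1.44 and -1.77, with repeat readings 0.82 apart and a ratio over EGFP of -0.53 to 0.49 over the settings, Gapdh 0.59, 0.01 and 0.58, Hprt -0.10, 0.28 and -0.38, and Tbp 0.09, 0.44 and -0.35. The summed level of 5 primitive endoderm markers was 3323 and 3282 in Nr5a2-EGFP cells, 2145 in Oct4-EGFP cells and 3166 in EGFP cells. That of 5 fibroblast markers was 10470 and 11064, against 18134 in Oct4-EGFP and 15392 in EGFP cells. That of 3 neural markers was 1078 and 1223, against 2695 in Oct4-EGFP and 1217 in EGFP cells. The last 2 sums do not show the direction of most of their markers. For Oct4-EGFP over EGFP, 4 of the 5 fibroblast markers lay below 0 (median -0.11), with Thy1 above (0.51). Of the neural markers, Sox1 lay above 0 (2.38, and 0.27 by its other probe). Nes (-0.45) and Pax6 (-1.52, but 1.39 by its other probe) lay below.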
